A study of Mus musculus with 24 samples.

Results

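Leukocyte miRNAs are short non-coding RNAs that are made largely in blood-derived immune cells. The 6 described here, mmu-miR-142-3p, mmu-miR-142-5p, mmu-miR-150, mmu-miR-155, mmu-miR-223 and mmu-miR-342-3p (written below without the species prefix mmu), were chosen by name from the 611 mouse miRNAs on a 1-colour miRNA microarray, by a rule that uses the cells they are known from and sets no threshold on a measured value. This choice was made with earlier results of these data known. RNA came from lungs of wild type (WT) mice and of mice with the SP-C/c-raf transgene, whose surfactant protein C promoter drives an active c-Raf kinase in the lung epithelium. The transgenic males (M c-Raf), transgenic females (F c-Raf), WT males (M WT) and WT females (F WT) made up the groups, each with 6 arrays and 1 animal per array, all aged 4 to 6 months. In all 24 animals the lung was frozen on dry ice. The study's methods describe cells cut by laser from stained sections of the frozen lungs, while its abstract speaks of RNA extracts from lungs. The labels do not say which cells were taken. The tissue label reads lung adenocarcinoma for every array, WT included. The promoter does not direct the transgene to leukocytes.

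The leukocyte miRNAs are known from immune cell types that differ in part and overlap in part. Both arms of miR-142 are made in nearly all blood lineages. miR-223 is a myeloid miRNA that is most abundant in neutrophils and limits their activation. miR-150 is abundant in resting B and T lymphocytes and represses the transcription factor Myb. miR-155 is induced in activated lymphocytes and macrophages, where it represses the phosphatase SHIP1. miR-342-3p is known from lymphoid and other blood cells. A miRNA pairs with its target mRNAs mainly through its seed, bases 2 to 8 from the 5′ end.

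The mature sequences are shown to tell the members apart, with the seed in capitals. RefSeq on build GRCm38.p6 held a mature sequence under the name of 5 of the 6 members. The array names miR-142-3p, miR-142-5p, miR-155 and miR-223 correspond there to miR-142a-3p, miR-142a-5p, miR-155-5p and miR-223-3p.
miR-342-3p: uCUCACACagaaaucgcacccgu
miR-223: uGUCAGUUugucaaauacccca
miR-155: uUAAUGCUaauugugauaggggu
miR-142-3p: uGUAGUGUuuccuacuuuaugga
miR-142-5p: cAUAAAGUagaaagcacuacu
The 5 seeds all differ, and 0 other mature entries among the 1679 in that table carry any of them. The GC content was 52.2% for miR-342-3p and between 33.3% and 40.9% for the others. On GRCm38.p6 the miR-342-3p sequence lies on the plus strand at chr12:108658680-108658702, within the bounds of the protein-coding gene Evl. The miR-223 sequence lies at chrX:96242884-96242905 (plus strand) within the lncRNA F630028O10Rik, and miR-155 lies at chr16:84714143-84714165 (plus strand) within its host lncRNA Mir155hg. Both miR-142 arms come from the Mir142 hairpin at chr11:87756864-87756927, which overlaps the gene Mir142b. The gene Mir150 lies at chr7:45121757-45121821 on the minus strand.

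Values are scaled intensities on the log2 scale: the spot intensity was divided by the brightness of the array, which is the 75th percentile of the spots that belong to the 27 miRNAs found on every one of the 24 arrays, and no member is among those 27. A scaled value below 0.01 was set to 0.01, which is the floor at -6.64. Detection was taken from the flag that the extraction software gave to each miRNA. Levels are compared between arrays for 1 miRNA at a time, since probes of different miRNAs differ in response. The arrays ranged in brightness from 34.9 to 1212 intensity units, with group medians of 433 (c-Raf) and 176 (WT) in males and of 193 (c-Raf) and 265 (WT) in females. One array of each group had a brightness under 100, and 120 miRNAs were detected on at least 6 arrays and tested. The epithelial miR-200b and miR-200c were detected on all 24 arrays and the endothelial miR-126-3p on 23. Other epithelial and endothelial markers were detected on fewer, from 22 arrays (miR-34c) down to 0 (miR-203 and miR-126-5p). Between these lay miR-200a on 11 and miR-141 on 1.

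The leukocyte miRNAs were detected very unevenly. miR-342-3p was detected on 23 of 24 arrays, miR-223 on 12, miR-155 on 7 and miR-150 on 7, whereas neither miR-142-3p nor miR-142-5p was detected on any. The defining marker of leukocytes in general was thus not above background in any group, although miR-342-3p, miR-223, miR-155 and miR-150 were detected on some arrays. The cells that gave the signal of these miRNAs were not determined. Of the 6 members, 4 passed the filter of detection on at least 6 arrays. miR-155 passed it through 6 c-Raf arrays and 1 WT array, miR-223 through 9 and 3, and miR-150 through 4 and 3. On the WT arrays alone only miR-342-3p would have passed. miR-155 and miR-223 thus entered the test through their c-Raf arrays.

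**Figure D1:**
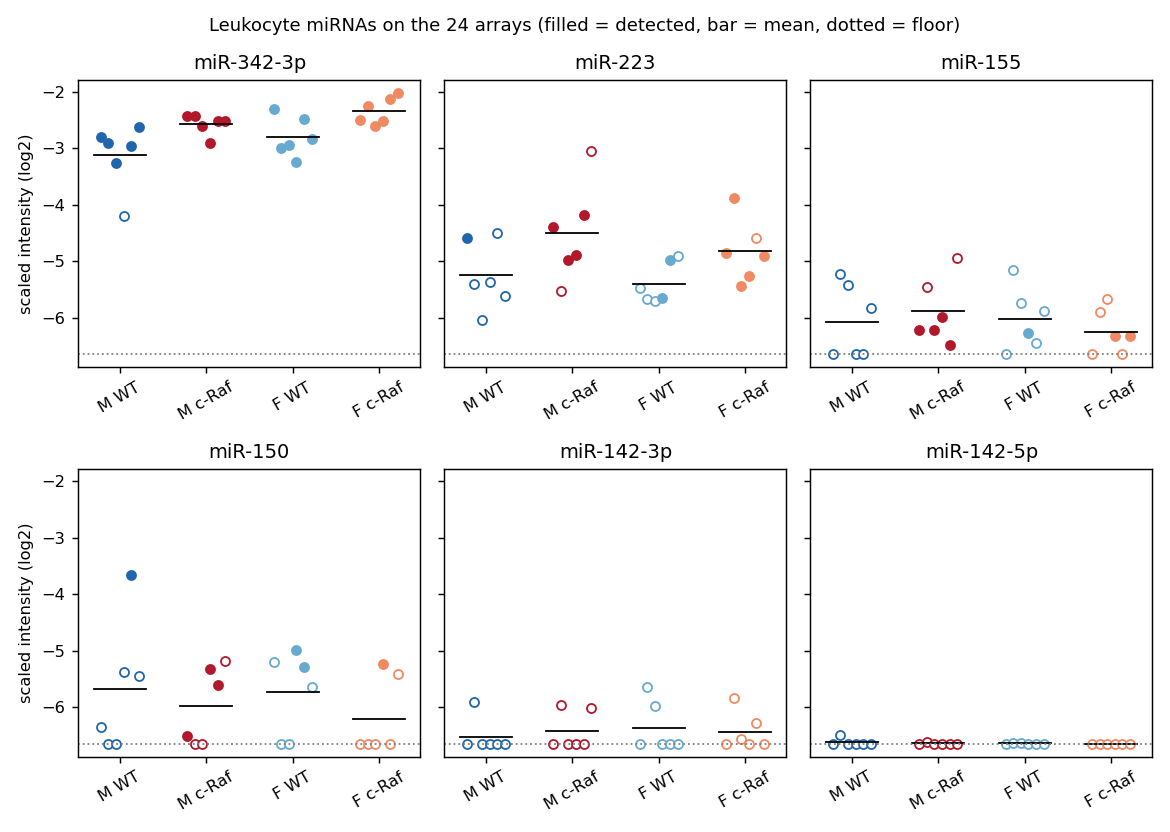
Scaled intensity (log2) of the 6 leukocyte miRNAs, 1 point per array in the 4 groups of 6; filled points were detected, bars are group means and the dotted line is the floor at -6.64. miR-342-3p sits between -4.20 and -2.02, and the miR-142 arms sit at or near the floor with every point open.

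miR-342-3p had higher values in c-Raf lungs than in WT lungs. In M c-Raf the 6 arrays read -2.43, -2.43, -2.61, -2.91, -2.52 and -2.52 (replicates 1 to 6), and in M WT they read -2.80, -2.90, -3.25, -4.20, -2.96 and -2.62. In F c-Raf they read -2.50, -2.24, -2.60, -2.52, -2.13 and -2.02, and in F WT -2.31, -3.00, -2.94, -3.24, -2.48 and -2.84. The c-Raf and WT ranges overlapped in both sexes: M WT replicates 1, 2 and 6 lay within the M c-Raf range, and F WT replicates 1 and 5 within the F c-Raf range. The lowest value of all, M WT replicate 4, came from the only array on which miR-342-3p was not detected, which was also the dimmest WT array. The group means in descending order were -2.34 ± 0.24 (SD, n = 6) in F c-Raf, -2.57 ± 0.18 in M c-Raf, -2.80 ± 0.35 in F WT and -3.12 ± 0.57 in M WT. The neighbours F c-Raf and M c-Raf did not differ beyond their spread (adjusted p = 0.952), nor did F WT and M WT (adjusted p = 0.605), and M c-Raf was not tested against F WT.

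Over both sexes miR-342-3p was higher in c-Raf by 0.51 on the log2 scale (SE 0.15, limma adjusted p = 0.0242). This is a fold of 1.42 (95% interval 1.14 to 1.76), and it was the only 1 of the 4 tested members called. In the same comparison 22 of 120 miRNAs (18.3%) were called, 15 of them higher (12.5%), and miR-342-3p was number 14 of 120 by p. The median difference was 0.24 over the 4 members and 0.09 over all 120. The difference was 0.55 in males (SE 0.21, adjusted p = 0.137) and 0.46 in females (SE 0.21, adjusted p = 0.288), so that neither sex passed the test alone. In males 2.5% and in females 5% of the 120 were called, and 0 of 4 members in either sex. At an unadjusted p under 0.05 stood 2 members in males, 1 in females and 2 in the pooled comparison, where 20.8%, 14.2% and 31.7% of the 120 did. In RNA from many cells, more cells of a type among those sampled and more miRNA per cell cannot be told apart.

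**Figure D2:**
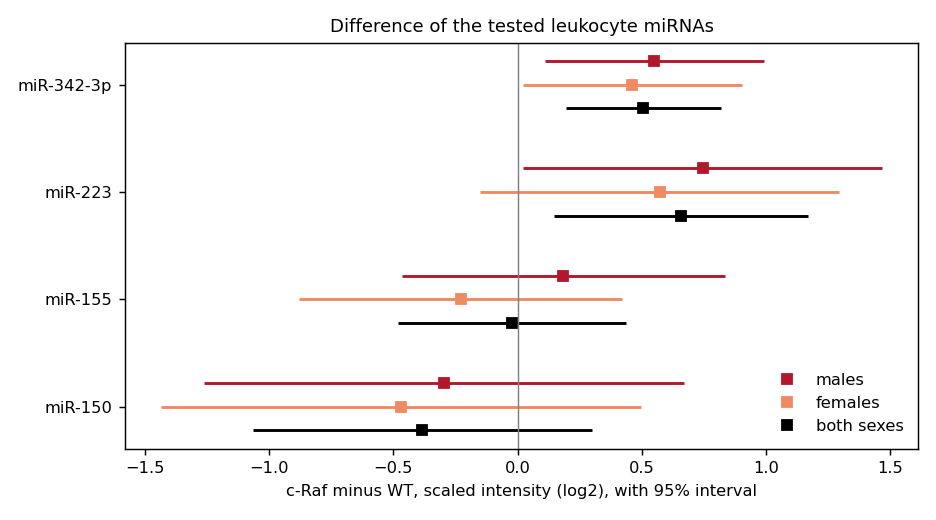
Difference of c-Raf minus WT (log2 of scaled intensity) of the 4 tested members, with squares for the estimate and lines for the 95% interval from the fit of 24 arrays. The interval of miR-342-3p over both sexes runs from 0.19 to 0.82, while those of miR-155 and miR-150 lie on both sides of 0.

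Since each slide held 1 array of every group, the difference can also be read within slides. miR-342-3p was higher in c-Raf on 11 of 12 slide pairs, 6 of 6 in males and 5 of 6 in females, and slide 1 in females was the exception at -0.19. Within the 4 scan batches the difference over both sexes was 1.00 (scan 1), 0.42 (scan 2), 0.09 (scan 3) and 0.55 (scan 4), positive in each. Scan 1 held only slide 4 and scan 3 only slide 1, so the scan values regroup the same slide pairs and add no separate evidence. The value of scan 1 includes M WT replicate 4, on which miR-342-3p was not detected. With the slide as a block the adjusted p over both sexes was 0.00494, and with the scan as a block it was 0.00327. With the scan block the male difference passed the test as well (0.55, adjusted p = 0.0446). Blocks raised the calls among all 120 miRNAs too. Over both sexes 28 (slide) and 32 (scan) were called, against 22 without a block, and in males 7 (scan) against 3. A group always had the same position on a slide, so that position and group cannot be told apart.

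**Figure D3:**
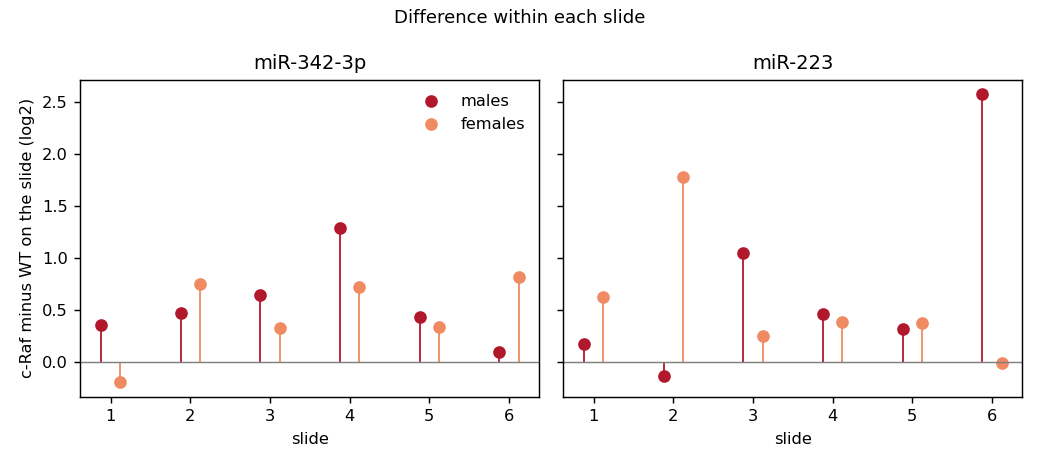
Difference of c-Raf minus WT (log2) within each of the 6 slides for miR-342-3p and miR-223, in males and females. miR-342-3p lies above 0 on 11 of 12 pairs and miR-223 on 10 of 12, with 2.58 in males on slide 6 as the largest value of miR-223.

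The call of miR-342-3p depended on the scaling and on the dim arrays. Without M WT replicate 4 the male difference was 0.34 (adjusted p = 0.377) and that over both sexes 0.40 (adjusted p = 0.0183). Without the 4 arrays of brightness under 100 the difference over both sexes was 0.37 and was not called (adjusted p = 0.0622). With arrays scaled to the 75th percentile of all non-control spots it was 0.91 (SE 0.50, adjusted p = 0.538), in a setting where the median over all 120 miRNAs also stood at 0.61. With normexp background correction, which moved the median of all miRNAs to -0.79 in males, miR-342-3p turned to -0.32 in males and was 0.12 over both sexes (adjusted p = 0.998).

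miR-223, the myeloid miRNA, was detected more often in c-Raf lungs. It was detected on 4 of 6 M c-Raf, 5 of 6 F c-Raf, 1 of 6 M WT and 2 of 6 F WT arrays. That is 9 c-Raf against 3 WT arrays, and the same 9 and 3 lay among the 10 c-Raf and 10 WT arrays of brightness 100 or more. Of the 120 tested miRNAs, 11 (9.17%) were detected on at least 6 more c-Raf than WT arrays. The same detection flags let miR-223 pass the filter, mostly through c-Raf arrays, and the 120 are the miRNAs that passed it. The detection counts are therefore a description and not a test. Of the 240 spots of miR-223 per genotype, 90 were well above background in c-Raf and 31 in WT. The M c-Raf arrays were also the brightest by group median and the M WT arrays the dimmest. The lowest intensity of a mouse miRNA spot well above background differed between arrays too, from 6.77 units (F WT replicate 4) to 27.0 (M WT replicate 5). The part of brightness and of this limit in the counts was not tested.

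The levels of miR-223 overlapped between the groups. In M c-Raf the arrays read -4.40, -5.53, -4.98, -4.89, -4.18 and -3.04, and in M WT -4.58, -5.40, -6.03, -5.36, -4.50 and -5.62. In F c-Raf they read -4.85, -3.88, -5.44, -5.26, -4.59 and -4.91, and in F WT -5.48, -5.67, -5.70, -5.65, -4.97 and -4.90. The highest value, M c-Raf replicate 6, came from the dimmest array, on which miR-223 was not detected. Group means ran from -4.50 ± 0.86 (SD, n = 6) in M c-Raf over -4.82 ± 0.55 in F c-Raf and -5.25 ± 0.60 in M WT to -5.39 ± 0.36 in F WT. As with miR-342-3p, both c-Raf means stood above both WT means.

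Over both sexes the difference of miR-223 was 0.66 (SE 0.25, 95% interval 0.15 to 1.17), which did not pass the test (adjusted p = 0.0648). It was 0.75 in males (SE 0.35, adjusted p = 0.203) and 0.57 in females (SE 0.35, adjusted p = 0.461). Within the scans the difference over both sexes was 0.43, 0.82, 0.40 and 0.74 (scans 1 to 4). It was called with the slide as a block (adjusted p = 0.0363) and with the scan as a block (adjusted p = 0.0340). It also passed the threshold without M c-Raf replicate 2 (adjusted p = 0.0322), without M WT replicate 1 (0.0447) and without replicate 5 of M WT (0.0451). In contrast, the male difference was 0.45 without M c-Raf replicate 6 (adjusted p = 0.307). Without the 4 dim arrays the difference over both sexes was 0.53 (adjusted p = 0.143), and with normexp it was -0.010.

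Each member was printed on the array as 2 probes of 10 spots each, called A and B here, and the probes did not read alike. Probe B of miR-342-3p had 226 of 240 spots well above background and probe A 127 of 240. The difference over both sexes was 0.54 with probe B (SE 0.17, adjusted p = 0.0264) and 0.41 with probe A (SE 0.17, adjusted p = 0.104). The probes of miR-223 were farther apart. Its probe B, with 103 of 240 spots well above background, gave 0.89 over both sexes (SE 0.22, adjusted p = 0.00781), whereas probe A, with 18 of 240, gave 0.08 (SE 0.34, adjusted p = 0.901). With probe B alone the male and female differences were 1.02 (adjusted p = 0.0814) and 0.76 (adjusted p = 0.207). On M c-Raf replicate 6, probe A of miR-223 read -2.88 with 1 spot well above background and probe B -3.24 with 0, while on the other 23 arrays probe A read below probe B. The value of a miRNA is the median over all 20 spots and so falls between the spots of the dimmer and the brighter probe.

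**Figure D4:**
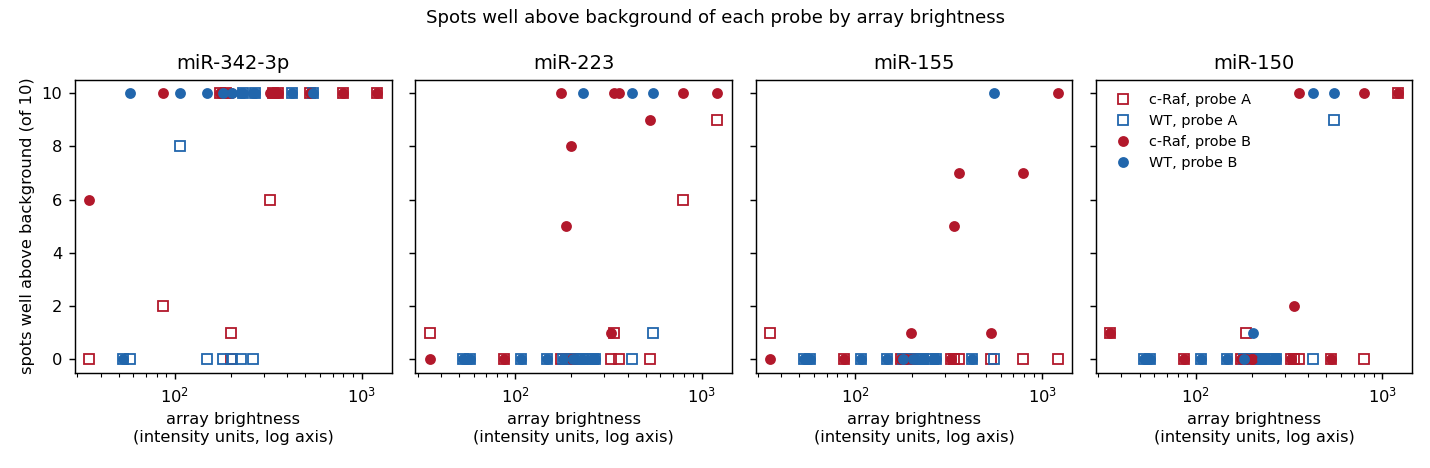
Number of spots well above background (of 10 per probe) on each array against array brightness in intensity units (log axis), for the 4 tested members; open squares are probe A, filled circles probe B, red c-Raf and blue WT. Probe B of miR-342-3p reaches 10 on nearly every array, probe B of miR-223 lies at 0 on 12 of 24 arrays, and both probes of miR-155 and miR-150 lie at 0 on most.

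miR-155 gave no difference between c-Raf and WT lungs past the test. Among males it was detected on 4 c-Raf and 0 WT arrays, and among females on 2 c-Raf arrays and 1 WT array. The M c-Raf arrays read -6.21, -5.46, -6.22, -5.98, -6.48 and -4.94, and the M WT arrays -6.64, -5.22, -5.42, -6.64, -6.64 and -5.83. In F c-Raf the values were -6.64, -5.90, -5.66, -6.33, -6.64 and -6.32, and in F WT -6.64, -5.15, -5.74, -6.27, -6.44 and -5.87. All groups overlapped, and 6 of the 24 values stood at the floor, where they have no order. The highest value, M c-Raf replicate 6, came from the dimmest array, on which miR-155 was not detected. The difference was 0.18 in males (adjusted p = 0.703), -0.23 in females (adjusted p = 0.799) and -0.02 over both sexes (95% interval -0.48 to 0.44, adjusted p = 0.945). The last value turned to 0.61 with the percentile over all spots, where the median of all 120 miRNAs also stood at 0.61. Without M c-Raf replicate 6 the male difference was -0.0032. No spot of miR-155 was well above background on any M WT array, and the M c-Raf mean of -5.88 lay below the bound of -3.32 that the background set for M WT, so no fold is given for males.

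The level of miR-155 varied with the scan. Its median was -5.56 over the 8 arrays of scan 4, of which 1 was detected, and -6.30, -6.38 and -6.64 in scans 1, 2 and 3. The SD of the negative control spots ran from 5.43 to 6.55 intensity units in scan 4 (median 5.70), 2.57 to 33.6 in scan 1 (median 3.24), 2.21 to 7.71 in scan 2 (median 2.81) and 2.19 to 2.94 in scan 3 (median 2.27). Its part in the level of miR-155 was not tested. Within scan 4 the c-Raf difference over both sexes was -0.43, and in scans 1 to 3 it was 0.30, 0.10 and 0.22. Each of these rests on 2 or 4 arrays per genotype.

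miR-150, the miRNA of resting lymphocytes, gave no difference past the test either, with negative estimates in both sexes. Its detections were 3 in c-Raf males, 1 in WT males, 1 in c-Raf females and 2 in WT females. The M c-Raf values were -6.51, -6.64, -6.64, -5.33, -5.60 and -5.18, and the M WT values -6.35, -6.64, -6.64, -5.37, -3.66 and -5.45. F c-Raf arrays gave -6.64, -6.64, -6.64, -5.24, -6.64 and -5.41, and F WT arrays -5.19, -6.64, -6.64, -5.00, -5.29 and -5.65. The value of M WT replicate 5 was the highest of all 24, and 10 values stood at the floor. All 8 arrays of scan 4 were among those 10. The difference was -0.30 in males (adjusted p = 0.677), -0.47 in females (adjusted p = 0.710) and -0.38 over both sexes (SE 0.33, 95% interval -1.07 to 0.30, adjusted p = 0.461). The male estimate turned to 0.11 without M WT replicate 5, and to 1.17 with the percentile over all spots, where that over both sexes was 0.32. In that setting the median of all 120 miRNAs stood at 1.01 in males and 0.61 over both sexes.

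The miR-142 arms were at background throughout. For miR-142-3p 0 of 480 spots were well above background, and the median intensity of an array ran from -0.413 to 4.33 units. For miR-142-5p 2 of 480 spots were well above background, and the median intensity ran from -6.31 to 2.77 units and was below 0 on 17 arrays. At the floor stood 16 and 20 of their 24 values. No fold is given for either arm, since both genotypes were below background. At the signal of these arrays miR-142 was therefore not detectable, which does not show that it was absent. Among the other arms of the members' hairpins, miR-150* was detected on 0 arrays and miR-342-5p on 3, and neither was tested.

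The sexes were compared within each genotype and the c-Raf difference was compared between them. No member was called in any of these comparisons. Males minus females gave -0.32 for miR-342-3p in WT (SE 0.21, adjusted p = 0.605) and -0.23 in c-Raf (SE 0.21, adjusted p = 0.952). For miR-223 the values were 0.14 in WT (SE 0.35, adjusted p = 0.783) and 0.32 in c-Raf (SE 0.35, adjusted p = 0.952). The c-Raf difference in males minus that in females was 0.09 for miR-342-3p (95% interval -0.54 to 0.71) and 0.17 for miR-223 (95% interval -0.85 to 1.20), with an adjusted p of 0.930 for each. These intervals are wide enough to hold a sex difference as large as the c-Raf difference itself. Adjusted p values of miR-150 and miR-155 in the 3 comparisons were 0.872 or higher. Of the 120 miRNAs, 0% were called between the WT sexes, 2.5% between the c-Raf sexes and 0% for the difference of the c-Raf effects by limma. An unadjusted p under 0.05 was reached by 0 of 4 members in each of the 3, and by 9.17%, 8.33% and 4.17% of the 120.

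Other miRNAs known in leukocytes moved in different directions. On the list of 12 (miR-146a, miR-146b, miR-147, miR-132, miR-212, the 4 miR-181 members, miR-15a, miR-16 and miR-125b-5p), of which lung cells of other types express several, 7 were tested. Over both sexes 2 rose and 1 fell. miR-146b, which is induced by inflammatory signals, rose by 1.18 (SE 0.18, adjusted p = 0.000153), and miR-16, a brake on the cell cycle, rose by 0.93 (SE 0.27, adjusted p = 0.0217). miR-181a, which tunes T cell receptor signalling, fell by 0.58 (SE 0.20, adjusted p = 0.0482). miR-146a, a partner of miR-146b in restraining Toll-like receptor signalling, gave 0.30 and did not pass (adjusted p = 0.389). The list's median was 0.30, against 0.09 over all 120.

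Markers of the other cells that a lung section holds are given beside the change of miR-342-3p. Of the 8 epithelial miRNAs tested, 3 were called higher over both sexes: miR-200a (0.73), miR-200b (0.75) and miR-429 (0.73), all members of the miR-200 family that keeps cells epithelial, and the median of the 8 was 0.24. The summed scaled level of the 8 ran on the log2 scale from -0.35 to 1.10 in M c-Raf, 0.44 to 1.10 in F c-Raf, -0.49 to 0.64 in M WT and 0.0041 to 0.91 in F WT. The endothelial miR-126-3p was higher by 0.75 (SE 0.21, adjusted p = 0.0217), and ran from -2.41 to -1.15 in M c-Raf, -1.86 to -0.97 in F c-Raf, -4.07 to -1.67 in M WT and -2.23 to -1.71 in F WT; its partner arm miR-126-5p was detected on 0 arrays. Of the erythroid miRNAs, which report red cells left in the tissue, miR-486 fell by 1.10 (SE 0.23, adjusted p = 0.00213), miR-451 gave 0.38 (adjusted p = 0.389) and miR-144 was detected on 0 arrays. The summed erythroid level ran from -3.44 to -2.52 in M c-Raf, -3.44 to -2.42 in F c-Raf, -3.32 to -0.97 in M WT and -3.16 to -2.10 in F WT. Among 3 tested mesenchymal miRNAs miR-214 fell by 0.86 (adjusted p = 0.000153), whereas miR-199a-3p (0.21, adjusted p = 0.293) and miR-199b* (0.40, adjusted p = 0.286) gave positive values that did not pass, and the median of the 3 was 0.21. Their summed levels were -2.19 to -1.84 in M c-Raf, -2.13 to -1.85 in F c-Raf, -1.82 to -1.11 in M WT and -2.14 to -1.49 in F WT. The smooth muscle miR-143 and miR-145 were detected on 3 arrays each and were not tested. The 9 miRNAs of the lists called over both sexes kept their sign under the other scalings, but many lost the call. With quantile normalization and with the total gene signal 6 of 9 were called, with the percentile over all spots and with no scaling only miR-146b, and with the deposited table, which gave no value for miR-146b, 0 of 8. miR-181a was -0.17 with the percentile over all spots (adjusted p = 0.853) and was also not called with quantile normalization (0.122), the total gene signal (0.1002) or without the dim arrays (0.0747). With normexp miR-146b (-0.0088) and miR-200a (-0.025) had the other sign and none of the 9 was called. The part of other cell types in the change of miR-342-3p was not tested.

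Across the 24 arrays the leukocyte miRNAs did not share 1 pattern. The Pearson r of the log2 values was 0.39 between miR-223 and miR-342-3p, 0.18 between miR-150 and miR-223, -0.09 between miR-155 and miR-223, and -0.35 between miR-150 and miR-155. For miR-342-3p it was -0.16 with miR-150 and -0.06 with miR-155. The tested miRNAs nearest to miR-342-3p were miR-429 (r = 0.81), miR-21 (0.80) and miR-34a (0.79), with miR-223 at place 39 among the others. Nearest to miR-223 were miR-199b* (0.72), miR-365 (0.57) and miR-425 (0.56), and nearest to miR-150 were miR-324-3p (0.65), miR-720 (0.62) and miR-181a (0.62). For miR-155 they were miR-30b* (0.84), miR-221 (0.77) and miR-497 (0.60). These correlations are descriptions over arrays that share brightness, scan and floor, and no test was made of them.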

How the data were processed

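Per the file headers, spot intensity in the deposited scanner files was background-subtracted by Agilent Feature Extraction without scaling between arrays; the authors' table of scaled intensity values was used as an alternative. Each member had 20 spots. Spot intensities were scaled, all scaled values below 0.01 were set to that floor, and the median over spots was log2-transformed. The study's methods name a 75th percentile, a value of 0.01 for negative signals and the median; the restriction of the percentile to 27 miRNAs and the floor for small positive values are additions. All 24 arrays entered 1 fit with 4 group means in limma 3.58.1 (R 4.3.3; moderated two-sided test; residual degrees of freedom 20, prior 1.80). Benjamini-Hochberg adjustment ran over the 120 mouse miRNAs detected on at least 6 arrays, with calls at an adjusted p under 0.05. The code was tested on simulated data.

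The members and lists were chosen with earlier results of these data known. Named were the members, their other arms, the called list miRNAs and the 3 nearest miRNAs by Pearson r. Some miRNAs of the lists that did not pass the test are named beside them.

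On all 24 arrays the replicate number equalled the slide, and each scan held every group. The files used here lack the mean signal, so normexp correction took the median signal with an offset of 50. Brightness stands for depth; the 6 arrays per group limit the precision. Array names follow the design on mm9, and RefSeq coordinates on GRCm38.p6 were used for sequence and place only.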

Additional observations from a re-analysis of the deposited data

How the results depend on the processing

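Over both sexes 1 member was called, miR-342-3p. The number called was 0 with the percentile over all spots, no scaling, a floor of 0.001, the total gene signal, the deposited table, no detection filter, normexp, probe A alone or, chosen after seeing the data, without the arrays under a brightness of 100. It was 2 with the slide as replicate block, the scan as block and probe B alone, and in males it was 1 with the scan as block. Of all 120 miRNAs 28, 32 and 24 were called over both sexes in those settings. In males 7 of 120 were called with the scan as block, against 3 in the fit reported. The number of members called stayed at 1 with quantile normalization, but there miR-223 was called (0.87, adjusted p = 0.0250) and miR-342-3p was not (adjusted p = 0.0859). The count of all miRNAs called over both sexes, 22 in the fit reported, ran from 0 (normexp) to 32 (scan as block). The methods' t-test called 0 members at the methods' threshold, and 0 after Benjamini-Hochberg, in males and in females. No member was called in females, between the sexes or for the difference of effects under any alternative run.

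Leaving out 1 array at a time gave 1 to 2 members called over both sexes and 0 in the other comparisons. The difference of miR-342-3p over both sexes then ran from 0.40 to 0.56 and that of miR-223 from 0.51 to 0.76. Other differences that turned sign ran from -0.49 to 0.11 (miR-150, males), -0.0032 to 0.35 (miR-155, males), -0.12 to 0.065 (miR-155, both sexes), -0.12 to 0.38 (miR-223, difference of effects), -0.0042 to 0.30 (miR-223, WT sexes) and -0.13 to 0.19 (miR-342-3p, difference of effects).

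The members that turned sign elsewhere had not passed the test. With the percentile over all spots miR-150 became 1.17 in males and 0.32 over both sexes, miR-155 0.61 over both sexes and miR-223 -0.33 between the WT sexes. With no scaling these were 1.98, 0.57, 0.82 and -0.56, and miR-342-3p between the c-Raf sexes became 0.46. With the deposited table they were 1.19, 0.30, 0.82 and -0.34. In these settings (percentile over all spots, no scaling, deposited table) the median of all tested miRNAs moved too. It stood at 1.01, 1.52 and 1.01 in males, and at 0.61, 0.68 and 0.56 over both sexes. Between the WT sexes it stood at -0.75, -0.99 and -0.78. Under normexp miR-150 (0.62) and miR-155 (0.70) turned in females, and miR-155 (-0.91), miR-223 (-0.73) and miR-342-3p (-0.32) in males. It also turned miR-223 over both sexes (-0.010), for the difference of effects (-1.43) and between the c-Raf sexes (-0.88), and miR-342-3p for the difference of effects (-0.88) and between the WT sexes (0.25). Normexp moved the median of all 120 to -0.79 in males and 0.62 in females. A floor of 0.001 gave 0.17 for miR-150 in males and 0.20 for miR-155 over both sexes. The total gene signal gave 0.11 for miR-150 in males, 0.058 and 0.16 for miR-155 in females and over both sexes, and -0.10 for miR-223 between the WT sexes, where quantile normalization gave -0.043. Probe B alone gave 0.18 for miR-150 in males and 0.056 for miR-155 over both sexes. Without the dim arrays miR-155 became -0.12 in males, and the difference of effects -0.19 for miR-223 and -0.089 for miR-342-3p. The cause was not tested.

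No value came from a floor of 0.1 or a filter of 12 arrays for miR-150 and miR-155, from a floor of 0.1 for miR-223 in females and between the WT sexes, or from the methods' t-test for the difference of effects. Same-numbered arrays did not deviate together in all pairs (23 of 36 correlations over 0.1, range -0.42 to 0.72). The replicate number was therefore read as the slide batch and not as a pairing. The fit reported has no term for the slide, which entered only as an alternative.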
